A study of Mus musculus with 20 samples.

Results

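Untreated cells of a mouse, labelled spleen, were followed from 0 min to 48 h, and the later libraries (12, 24 and 48 h) were compared with the middle ones (2, 3 and 6 h). These are 6 of the 20 messenger RNA libraries of the series, 3 a side, chosen by their labels alone: treatment none, and the time. The other untreated libraries (0, 15 and 30 min and 1 h) and the 10 libraries given a cocktail of LPS, IL4 and TGFb serve here as reference values. Per the design text 1 treated and 1 untreated mouse were used, with no strain, age or genotype given, and the labels name a tube of cells but neither a medium nor a culture. Each time is 1 library, so the 3 times of a side stand in place of replicates: errors and p-values measure the spread between times, not between animals, and a side with a trend in it counts that trend as spread.

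Cells kept outside the animal meet a new supply of nutrients, oxygen and growth signals, and B cells, which make up much of the spleen, leave rest or die according to the signals they get. Cells that lack an amino acid hold uncharged transfer RNA, which turns on the kinase GCN2 and through it the transcription factor ATF4, whose targets make, import and recycle amino acids. Oxidants and misfolded protein act through other switches, NRF2 and HSF1, whose targets are the glutathione and thioredoxin enzymes and the heat shock chaperones. Glycolysis, mitochondrial respiration and the mitotic cyclins follow growth and division.

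The labels name no cell type. The libraries held B cell transcripts, and most markers of the T, NK and macrophage lists were under 1 CPM, though not all. Ms4a1, which encodes the B cell surface protein CD20, lay between 441 and 597 CPM (counts per 1000000 with edgeR's TMM scaling) over the 6 libraries, while Cr2, a complement receptor of mature B cells, was at most 0.129. Of the T cell markers, 8 of 12 stayed under 1 CPM in all 6 libraries (Cd3e, Cd3d, Cd3g, Cd8a and Thy1 among them, with Cd2 listed at 0), as did 8 of 9 NK cell and 9 of 14 macrophage and monocyte markers, with C1qa, C1qb and C1qc listed at 0. Those above it included Cd5 (37.6 to 48.7 CPM) and Lck (8.50 to 20.9) of the T cell list, Prf1 (6.67 to 14) of the NK cell list, and Csf1r (13.8 to 24.3), Cd68 (10.8 to 20.5) and Hmox1 (29.3 to 234) of the macrophage list. Of 8 dendritic cell markers only 2 were under 1 CPM in all 6 libraries, and Ccr7 lay at 138 to 297, Batf3 at 15.2 to 38.8, Zbtb46 at 6.39 to 16.6 and Flt3 at 6.90 to 12 CPM. All 9 neutrophil, 8 erythroid and 6 mast cell and basophil markers in the tables were under 1 CPM as well. The genes of the major histocompatibility complex on chromosome 17 were listed at or near 0 in every library. Since Vars and Csnk2b of the same region, which every cell uses, were too, no level was read from them. Total counts ran from 40720958 to 58622435 in the 6 libraries, so that 3 counts, taken as the floor for counting error only, came to at most 0.0737 CPM. Sequencing lane moved with time: 12 and 24 h were run in lane 1, 48 h in lane 3, 3 and 6 h in lane 3, and 2 h in lane 2.

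Tested on the 6 libraries alone, no gene of 11418 passed an adjusted p of 0.05 in edgeR's quasi-likelihood test (percent called 0), and the smallest adjusted p was 0.07. At an unadjusted p under 0.05 there were 2735 genes (24%), 1318 higher and 1417 lower at 12 to 48 h. In DESeq2 506 genes were higher and 594 lower. A fit of all 20 libraries in 8 groups of arm and phase, which estimates 1 shared spread with more degrees of freedom, called 751 genes higher and 708 lower of 12139 (12%). Of those 1459 genes, 1402 had no overlap between the 3 late and the 3 middle libraries, and 1405 had an unadjusted p under 0.05 with the same sign in the fit of 6. Of all 12139 genes, 14.3% had no overlap on the higher and 12.8% on the lower side. The calls were made on these same 6 libraries, so both counts follow from the selection and are no separate check. This larger fit leans on the first hour, where libraries differed less from each other: the median gene had an SD of 0.075 (log2(CPM + 0.5)) over 15 min, 30 min and 1 h, against 0.154 over 2 to 6 h and 0.165 over 12 to 48 h. Below, rose and fell refer to calls of the 20-library fit, with its log2 fold changes and edgeR adjusted p, unless another fit is named.

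Lane and single libraries bear on these calls. With lane as a term over the 10 untreated libraries 0 genes were higher and 2 lower (2602 at an unadjusted p under 0.05, 21.9%). There, 1448 of the 1459 genes kept their sign and 1144 had an unadjusted p under 0.05 with that sign. The 10 libraries include those that gave the calls, so this is no separate check either. Leaving out the 6 h library raised the calls to 1470 higher and 1342 lower, and without 2 h they were 113 and 182, without 3 h 64 and 76, and without 24 h 179 and 189. The 6 h library lay between the mean of 2 and 3 h and the mean of 12 to 48 h for 692 of the 751 higher and 646 of the 708 lower genes. With library totals as the only scaling the split was 567 higher and 897 lower, which moves the share of higher calls from 51.5% to 38.7%.

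Taken one by one, the late libraries had more genes far above 2 to 6 h with each time, while genes far below were most at 24 h. Among 9503 genes with a mean of at least 5 CPM, the 12 h library had 49 genes over 2-fold above and 103 over 2-fold below the mean of 2, 3 and 6 h (log2(CPM + 0.5), no test). At 24 h these were 90 and 178, and at 48 h 159 and 156. Of the 751 genes that rose, the largest of the 3 late values was at 24 h for 429, at 48 h for 252 and at 12 h for 70. Their median log2 ratio was 0.4, 0.56 and 0.47 at 12, 24 and 48 h, and that of the 708 genes that fell -0.51, -0.66 and -0.64. At 48 h, 739 of the 751 and 696 of the 708 were still outside the range of 2 to 6 h. Since the call pools the 3 late times, this describes the called genes only. Among all genes at 5 CPM or more some did turn back: of 76 genes over 2-fold lower at both 12 and 24 h, 32 were still so at 48 h and 13 had passed above the 2 to 6 h mean, the amino acid genes Trib3, Cth, Gpt2, Slc7a3 and Slc6a9 among them. On the other side, of 23 genes over 2-fold higher at both times 8 were still so at 48 h and 5 had passed below the mean (Egr1, Egr2, Il10, Pdcd1 and Pstpip2). The 0 min level was nearer to the level of 12 to 48 h than to that of 2 to 6 h for 206 of the 751 and 258 of the 708.

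Among called genes with a mean of at least 5 CPM, the largest falls were in counts over Mir20a and Mir18, hairpins of the Mir17 cluster. Myc activates this cluster in dividing cells, and its micro RNAs hold back the death gene Bcl2l11. The mature micro RNAs of the 4 loci that fell are shown to place them by seed, from RefSeq (GRCm38.p6), with the seed (bases 2 to 8) in capitals. The first pair share their seed, and the others have seeds of their own.
miR-17-5p: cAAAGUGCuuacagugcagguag
miR-20a-5p: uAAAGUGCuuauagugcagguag
miR-18a-5p: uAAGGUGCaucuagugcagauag
miR-19a-3p: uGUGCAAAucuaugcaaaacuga
The hairpins lie on the plus strand of chromosome 14, Mir17 at chr14:115043671-115043754, Mir18 at chr14:115043851-115043946, Mir19a at chr14:115044000-115044081 and Mir20a at chr14:115044157-115044263, all inside the host gene Mir17hg at chr14:115042879-115046727 (GENCODE vM21, GRCm38).

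Mir17 stood at 13.4, 5.38 and 1.52 CPM at 2, 3 and 6 h and 0.967, 0.369 and 0.620 CPM at 12, 24 and 48 h. Mir17 fell by 3.37 ± 0.90 on the log2 scale (SE, adjusted p = 0.026). Mir20a stood at 17.8, 8.25 and 1.89 CPM at 2, 3 and 6 h and 1.61, 0.762 and 1.11 CPM at 12, 24 and 48 h. Mir20a fell by 3.00 ± 0.84 on the log2 scale (SE, adjusted p = 0.032). The 2 h library was the highest, the 6 h library was already near the late ones, and the sides did not overlap for any of the 4. Mir18 went from 27.9 CPM at 2 h to 1.43 at 48 h (log2 fold change -2.96 ± 0.87 SE, adjusted p = 0.038) and Mir19a from 11.6 to 0.639. Mir19a fell by 2.84 ± 0.86 on the log2 scale (SE, adjusted p = 0.043). Mir19b-1, the fifth hairpin, was at 2.55 CPM at 2 h and 0.301 at 48 h and did not pass (adjusted p = 0.089), and Mir92-1 was listed at 0. The host gene Mir17hg did not pass and stood at 729, 399 and 233 CPM at 2, 3 and 6 h and 343, 339 and 395 CPM at 12, 24 and 48 h (log2 fold change -0.34, adjusted p = 0.69). Of the 4 calls, leaving out the 2 h library ended 4 (adjusted p 0.14 to 0.23), the 3 h library 4 (adjusted p 0.079 to 0.11), the 12 h library 3 (adjusted p 0.056 to 0.064), the 24 h library 4 (adjusted p 0.1 to 0.14) and the 48 h library 4 (adjusted p 0.065 to 0.1). Of 16 hairpin genes tested 0 rose and 5 fell, the fifth being Mir703, where 5.83% of all genes fell. The other 4 lie together inside 1 host gene, so they do not count as separate falls. These poly-A libraries show reads over the hairpin loci, not the mature arms, and because host and hairpins overlap on 1 strand, how the counting divided their reads is uncertain. The cluster as a group was chosen after its values were seen.

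Among genes with a mean of at least 5 CPM and no overlap between the sides, the largest rise was in Fcamr, a receptor that binds the Fc part of IgM and IgA. It stood at 4.25, 3.89 and 9.29 CPM at 2, 3 and 6 h and 26.5, 20.4 and 12.9 CPM at 12, 24 and 48 h. Fcamr rose by 1.78 ± 0.32 on the log2 scale (SE, adjusted p = 0.006). Tnfsf14, which encodes the TNF family ligand LIGHT, was at 3.66, 5.21 and 8.76 CPM at 2, 3 and 6 h and 21.2, 16.2 and 11.7 CPM at 12, 24 and 48 h. Tnfsf14 rose by 1.48 ± 0.28 on the log2 scale (SE, adjusted p = 0.0079). Both were highest at 12 h and lower at 48 h, while all late values remained above all middle ones. Irf8, a transcription factor that B cells, dendritic cells and monocytes use, was at 83.4, 64.3 and 111 CPM at 2, 3 and 6 h and 197, 179 and 272 CPM at 12, 24 and 48 h. Irf8 rose by 1.32 ± 0.29 on the log2 scale (SE, adjusted p = 0.011). Its 0 min level was 224 CPM, so the middle libraries were the low ones. Pde2a, a phosphodiesterase that breaks down cyclic nucleotides, was at 9.04, 11 and 15.2 CPM at 2, 3 and 6 h and 35.7, 44 and 20.6 CPM at 12, 24 and 48 h. Pde2a rose by 1.51 ± 0.34 on the log2 scale (SE, adjusted p = 0.014). Fndc9 was at 8.85, 8.99 and 11.7 CPM at 2, 3 and 6 h and 24.9, 26.4 and 27.2 CPM at 12, 24 and 48 h, and its 3 late values differed little. Fndc9 rose by 1.41 ± 0.18 on the log2 scale (SE, adjusted p = 0.0017). Gstt2, a glutathione transferase, rose 2.19-fold (adjusted p = 0.0051), Dbi, which binds acyl-CoA esters, 2.24-fold (0.0081) and Ddt, a relative of the cytokine MIF, 2.39-fold (0.015). Spata6, Stox2, Ccdc18 and the septin gene Sept10 rose 2.15-, 2.23-, 2.31- and 2.31-fold (adjusted p between 0.0088 and 0.028). Stox2, Ccdc18 and Sept10 had 0 min levels of 18.2, 28.9 and 15.1 CPM, above each of their middle values. Of these 12 calls, leaving out the 2 h library ended 6 (adjusted p 0.052 to 0.14), the 3 h library 9 (adjusted p 0.057 to 0.15), the 24 h library 4 (adjusted p 0.052 to 0.067) and the 48 h library 1 (adjusted p of 0.08), while Fcamr, Fndc9 and Gstt2 held throughout. Fcamr, Fndc9, Sept10, Ccdc18, Stox2 and Spata6 overlap a gene on the other strand, and since the strand setting of the counting is not given in the sources used here their values may hold reads of that gene. The same holds for Echs1, Cdk6, Snhg6, Tpi1, Gapdh, Ndufs1, Nusap1, Cdc25c, Psmd13, Psma2, Psma5, Farsb, Mars, Dnaja1, Gclm, Txnrd1, Sqstm1, Rpl32, Psph, Psat1, Pck2, Pax5, Gpr15 and Cish below.

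**Figure D1:**
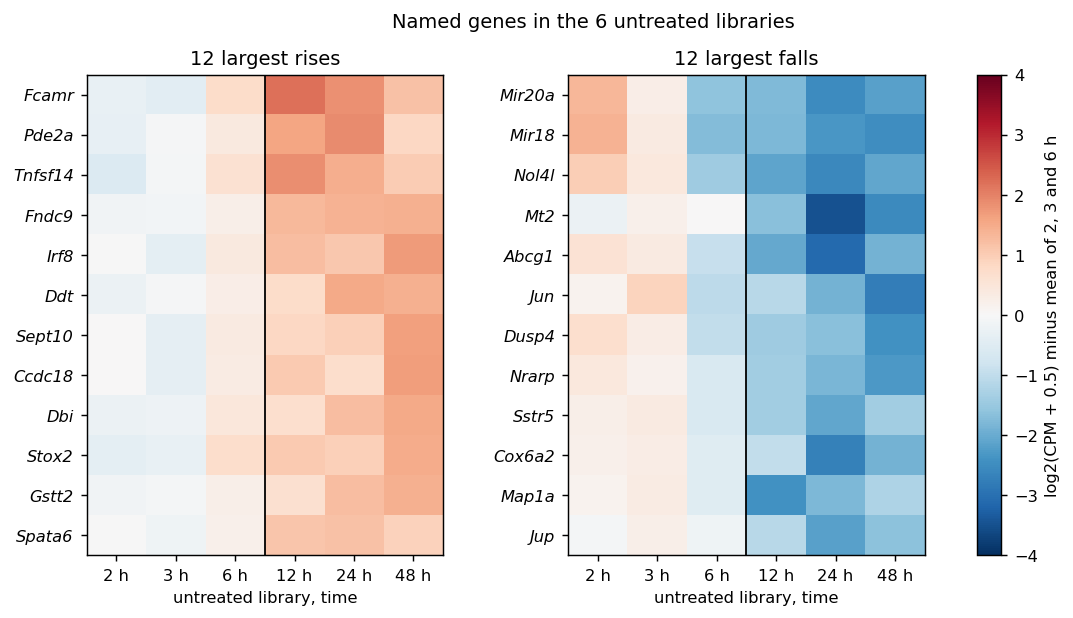
Heat map of the 12 largest rises and the 12 largest falls (rows) in the 6 untreated libraries (columns), coloured by log2(CPM + 0.5) minus the gene's mean at 2, 3 and 6 h; a black line parts the sides. All rises are positive and all falls negative at 12, 24 and 48 h, and the 6 h column has the colour of the late side, paler, for most genes.

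The largest falls beside the micro RNA loci were in Nol4l, Mt2 and Abcg1. Nol4l stood at 66.8, 45 and 12.2 CPM at 2, 3 and 6 h and 7.39, 5.24 and 7.50 CPM at 12, 24 and 48 h, after 13.7 CPM at 0 min, so that the 2 and 3 h libraries were the ones apart. Nol4l fell by 2.62 ± 0.55 on the log2 scale (SE, adjusted p = 0.011). Mt2, a metallothionein that binds zinc and copper, was at 27.3, 36.8 and 32.3 CPM at 2, 3 and 6 h and 9.65, 2.40 and 5.0 CPM at 12, 24 and 48 h. Mt2 fell by 2.50 ± 0.65 on the log2 scale (SE, adjusted p = 0.024). Abcg1, which exports cholesterol, was at 114, 98.2 and 40.2 CPM at 2, 3 and 6 h and 18.1, 8.36 and 20.3 CPM at 12, 24 and 48 h, and its late values were also below the 51.5 CPM of 0 min. Abcg1 fell by 2.43 ± 0.42 on the log2 scale (SE, adjusted p = 0.0044). Map1a, a microtubule binding protein, was at 224, 257 and 146 CPM at 2, 3 and 6 h and 37.4, 58.5 and 86.7 CPM at 12, 24 and 48 h, against 25.7 CPM at 0 min, and turned up again from 12 to 48 h. Map1a fell by 1.78 ± 0.39 on the log2 scale (SE, adjusted p = 0.012). Jun, a subunit of the AP-1 factor that the immediate early response makes, was at 18.3, 30.9 and 7.73 CPM at 2, 3 and 6 h and 7.44, 4.06 and 1.99 CPM at 12, 24 and 48 h, with a peak at 3 h. Jun fell by 2.08 ± 0.58 on the log2 scale (SE, adjusted p = 0.03). Dusp4, a phosphatase that acts on MAP kinases, was at 133, 102 and 41.8 CPM at 2, 3 and 6 h and 30.4, 25.5 and 14.9 CPM at 12, 24 and 48 h, falling through all 6 libraries. Dusp4 fell by 1.97 ± 0.42 on the log2 scale (SE, adjusted p = 0.011). Nrarp, a target and brake of Notch signalling, fell 3.89-fold (adjusted p = 0.014), the somatostatin receptor gene Sstr5 3.57-fold (0.0087), the cytochrome oxidase isoform gene Cox6a2 3.48-fold (0.019) and Jup, which encodes plakoglobin, 3.42-fold (0.0018). Of these 10 calls, leaving out the 2 h library ended 7 (adjusted p 0.051 to 0.087), the 3 h library 8 (adjusted p 0.057 to 0.17), the 24 h library 6 (adjusted p 0.055 to 0.11) and the 48 h library 3 (adjusted p 0.053 to 0.084), while Abcg1 and Jup held throughout. Nol4l, Mt2, Jun, Nrarp, Cox6a2 and Map1a overlap a gene on the other strand.

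Of 18 tested genes of glycolysis, which turns glucose into pyruvate and lactate, 9 rose and 0 fell, where 6.19% of all genes rose and 5.83% fell, and the median log2 fold change was 0.50 against 0.007 over all genes. Ldha, which turns pyruvate into lactate, stood at 649, 764 and 951 CPM at 2, 3 and 6 h and 1189.8, 1605 and 1219.7 CPM at 12, 24 and 48 h, above the 453 CPM of 0 min throughout. Ldha rose by 0.76 ± 0.18 on the log2 scale (SE, adjusted p = 0.017). Eno1, enolase, was at 319, 360.0 and 415 CPM at 2, 3 and 6 h and 527, 661 and 589.7 CPM at 12, 24 and 48 h. Eno1 rose by 0.70 ± 0.14 on the log2 scale (SE, adjusted p = 0.0081). Pgk1 and Tpi1 rose 1.58- and 1.57-fold (adjusted p = 0.022 and 0.034), and Pfkl, Aldoa, Gapdh, Pgam1 and Pkm between 1.36- and 1.53-fold. The glucose carrier gene Slc2a1 and the hexokinase gene Hk2 did not pass, with log2 fold changes of -0.91 and -0.01. In the fit of 6 libraries 10 members were higher and 2 lower at an unadjusted p under 0.05, where 11.5% and 12.4% of all genes were. In the fit with lane 12 were higher and 1 lower, where 11.2% and 10.8% of all genes were. Sides did not overlap for 11 members on the higher side, beside 14.3% of all genes. Rises among the 18 were 1 without 2 h, 0 without 3 h, 9 without 6 h, 8 without 12 h, 1 without 24 h and 5 without 48 h, and 1 fell without 6 h. The stimulated arm had 14 of 18 higher, where 11.5% of all genes were higher over the same times. In the unpaired test of the difference between arms 0 members passed. Paired by time, a choice made after the data were seen, 1 passed over 12 libraries, where 263 of 11723 genes (2.24%) did. Over all 20 libraries 8 passed paired, where 825 of 12139 genes did.

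Promoters of the 4 glycolysis genes with the largest rise are printed because these genes moved together, 200 bases ending at the base before the RefSeq start (GRCm38.p6), 5′ to 3′ on the gene's strand. Capitals mark ACGTGC, a form of the core that hypoxia inducible factors bind, searched on both strands, so that GCACGT is the same form on the other strand. Shorter or other forms of that core were not searched and stay in lower case.
Ldha: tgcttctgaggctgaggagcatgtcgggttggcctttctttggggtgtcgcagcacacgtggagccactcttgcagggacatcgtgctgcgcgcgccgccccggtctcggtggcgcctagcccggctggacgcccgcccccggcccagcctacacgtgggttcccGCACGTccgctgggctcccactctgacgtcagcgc
Eno1: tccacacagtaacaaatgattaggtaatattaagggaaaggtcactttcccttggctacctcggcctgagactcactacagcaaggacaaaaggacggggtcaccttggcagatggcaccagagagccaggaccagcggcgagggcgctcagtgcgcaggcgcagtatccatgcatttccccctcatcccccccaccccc
Pgk1: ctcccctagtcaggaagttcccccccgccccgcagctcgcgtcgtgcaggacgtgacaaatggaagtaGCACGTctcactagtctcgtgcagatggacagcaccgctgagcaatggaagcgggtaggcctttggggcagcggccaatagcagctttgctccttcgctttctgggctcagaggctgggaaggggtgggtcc
Tpi1: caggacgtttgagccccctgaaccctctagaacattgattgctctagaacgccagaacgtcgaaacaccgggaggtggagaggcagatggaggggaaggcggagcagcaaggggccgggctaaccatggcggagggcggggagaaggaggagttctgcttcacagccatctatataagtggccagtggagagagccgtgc
They lie at chr7:46845604-46845803 (plus strand), chr4:150236508-150236707 (plus), chrX:106186900-106187099 (plus) and chr6:124814159-124814358 (minus). RefSeq lists more than 1 start for Ldha and Eno1, of which 1 is shown. Within 250 bases before to 50 after a listed start, 4 of the 9 called glycolysis genes held ACGTGC (Gapdh, Ldha, Pgam1 and Pgk1), beside 9.93% of 8773 tested genes with an entry and 6.68% of all 27025 genes with one. The match is a description of letters. In the pooled comparison the list of hypoxia response genes itself had 0 members higher and 0 lower of 14, with medians of -0.28, -0.13 and 0.55 at 12, 24 and 48 h.

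Nuclear genes of the mitochondrial respiratory chain rose by smaller steps. Of 36 tested 16 rose and 0 fell (median log2 fold change 0.26), where 6.19% of all genes rose and 5.83% fell. For 26 the sides did not overlap, beside 14.3% of all genes on the higher side. Cox7a2 of complex IV was at 64.8, 72.3 and 74.6 CPM at 2, 3 and 6 h and 88.8, 123 and 102 CPM at 12, 24 and 48 h. Cox7a2 rose by 0.57 ± 0.12 on the log2 scale (SE, adjusted p = 0.0099). Uqcrc1 of complex III was at 205, 216 and 231 CPM at 2, 3 and 6 h and 269.8, 351 and 309 CPM at 12, 24 and 48 h. Uqcrc1 rose by 0.51 ± 0.10 on the log2 scale (SE, adjusted p = 0.0083). The complex I genes Ndufa4 and Ndufs1, the first of which is also assigned to complex IV, rose 1.44- and 1.40-fold (adjusted p = 0.012 and 0.013). Called members came from complexes I, II, III and IV and from the ATP synthase, and 24 h was the highest of the late libraries for each of the 4 named. Left out in turn, single libraries gave counts of 1 without 2 h, 0 without 3 h, 19 without 6 h, 18 without 12 h, 2 without 24 h and 11 without 48 h. With lane as a term 9 of 36 members were higher at an unadjusted p under 0.05, beside 11.2% of all genes.

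Mitosis and spindle genes had the largest positive median of the lists with at least 5 members tested. Of 32, 8 rose and 0 fell, with a median log2 fold change of 0.68, where 6.19% of all genes rose and 5.83% fell. The list's summed level was 3583, 3793 and 6669 CPM at 2, 3 and 6 h and 7120, 7288 and 6751 CPM at 12, 24 and 48 h. Most of its rise thus came between 3 and 6 h, within the middle side. Ccnb2, a mitotic cyclin, was at 42.8, 47.1 and 63.6 CPM at 2, 3 and 6 h and 90.6, 95.4 and 102 CPM at 12, 24 and 48 h. Ccnb2 rose by 0.91 ± 0.12 on the log2 scale (SE, adjusted p = 0.0018). Ccnb1 was at 118, 112 and 244 CPM at 2, 3 and 6 h and 279.6, 339.7 and 247 CPM at 12, 24 and 48 h, so that its 6 h library lay with the late ones. Ccnb1 rose by 0.87 ± 0.27 on the log2 scale (SE, adjusted p = 0.044). Nusap1, which bundles spindle microtubules, and Cdc25c, the phosphatase that activates the mitotic kinase, rose 1.87- and 1.83-fold (adjusted p = 0.028 and 0.0082). The members that did not pass include Plk1 (log2 fold change 1.05), Hmmr (1.13) and Mki67 (0.31). At 0 min Ccnb2 was at 56, Ccnb1 at 123 and Mki67 at 815 CPM, so transcripts of dividing cells were present from the start. Leaving out each library gave rises of 1 without 2 h, 1 without 3 h, 28 without 6 h, 5 without 12 h, 2 without 24 h and 4 without 48 h, with 1 fall without 6 h. In the fit with lane 8 of 32 were higher at an unadjusted p under 0.05, beside 11.2% of all genes. The DNA replication and S phase list was mixed: 5 of 36 rose (Pola1, Orc1, Prim2, Pole and Rfc4) and 2 fell (Ung, which removes uracil from DNA, and E2f1), with a median of 0.07. The ribosome biogenesis list had 0 higher and 0 lower of 39.

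Proteasome subunit genes had their largest list median at 24 h. Of 30 tested 9 rose and 0 fell, where 6.19% of all genes rose and 5.83% fell. List medians were 0.34, 0.58 and 0.18 at 12, 24 and 48 h. Psmd13, a subunit of the cap, was at 74.3, 86 and 116 CPM at 2, 3 and 6 h and 142, 173 and 120.3 CPM at 12, 24 and 48 h. Psmd13 rose by 0.66 ± 0.20 on the log2 scale (SE, adjusted p = 0.044). The core subunit genes Psmb3, Psma5 and Psma2 rose 1.44-, 1.44- and 1.41-fold (adjusted p between 0.036 and 0.039). Once lane was a term 3 of 30 members were higher and 1 lower at an unadjusted p under 0.05, a share near the 11.2% of all genes that were higher. In the fit of 6 libraries 17 were, beside 11.5% of all genes. Counts with a library left out were 0 without 2 h, 0 without 3 h, 17 without 6 h, 5 without 12 h, 0 without 24 h and 9 without 48 h.

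Aminoacyl-tRNA synthetases load transfer RNAs, and ATF4 also targets many of their genes. Of 19, 6 rose and 0 fell, where 6.19% of all genes rose and 5.83% fell. List medians were -0.04, 0.16 and 0.48 at 12, 24 and 48 h. Farsb, the beta subunit of the phenylalanine enzyme, was at 35.9, 32 and 43.4 CPM at 2, 3 and 6 h and 61.8, 70.3 and 72.6 CPM at 12, 24 and 48 h. Farsb rose by 0.88 ± 0.11 on the log2 scale (SE, adjusted p = 0.0017). Dars, Mars and Rars rose 1.41-, 1.37- and 1.31-fold (adjusted p = 0.014, 0.013 and 0.018). With 1 library left out the calls were 1 without 2 h, 1 without 3 h, 7 without 6 h, 6 without 12 h, 1 without 24 h and 7 without 48 h. With lane as a term 11 of 19 were higher at an unadjusted p under 0.05, where 11.2% of all genes were.

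**Figure D2:**
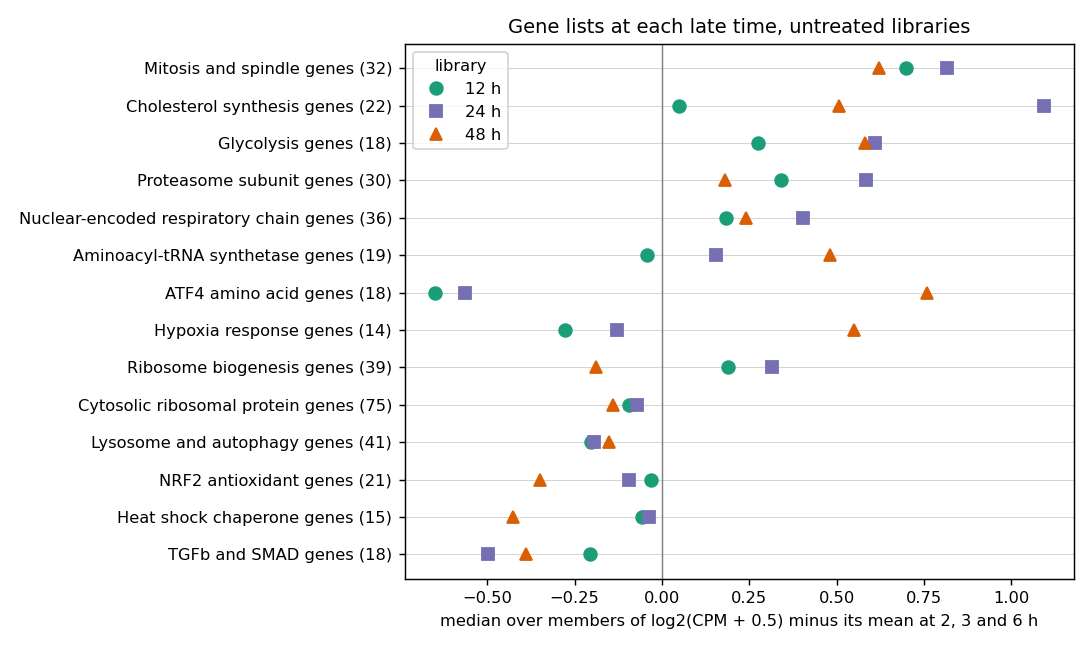
Median over each list's tested members (number in brackets) of log2(CPM + 0.5) minus its mean at 2, 3 and 6 h, 1 point per late library (circle 12 h, square 24 h, triangle 48 h). Mitosis, glycolysis and respiratory chain lists lie to the right of 0 at all 3 times, and the ATF4 list moves from -0.65 and -0.56 at 12 and 24 h to 0.76 at 48 h.

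The heat shock genes that fell had a peak at 3 or 6 h. Of 15 chaperone genes tested 0 rose and 4 fell (median log2 fold change -0.14), where 6.19% of all genes rose and 5.83% fell. Hsph1, an exchange factor of the HSP70 chaperones, stood at 281, 528 and 574 CPM at 2, 3 and 6 h and 203, 225 and 135 CPM at 12, 24 and 48 h, after 94.2 CPM at 0 min. Hsph1 fell by 1.30 ± 0.37 on the log2 scale (SE, adjusted p = 0.034). Dnajb1, an HSP40 that feeds clients to HSP70, was at 138, 192 and 84.6 CPM at 2, 3 and 6 h and 54.1, 53.4 and 40.5 CPM at 12, 24 and 48 h. Dnajb1 fell by 1.49 ± 0.24 on the log2 scale (SE, adjusted p = 0.0028). Dnaja1 was at 235, 365 and 379.6 CPM at 2, 3 and 6 h and 152, 183 and 102 CPM at 12, 24 and 48 h. Dnaja1 fell by 1.16 ± 0.28 on the log2 scale (SE, adjusted p = 0.016). Bag3, which couples HSP70 to autophagy, fell 1.82-fold (adjusted p = 0.032). For all 4 the 48 h library was the lowest of the 6. The sides did not overlap for any of the 4, beside 12.8% of all genes on the lower side. The mitochondrial chaperone genes Hspd1 and Hspe1 had log2 fold changes of 0.08 and -0.01. Leaving out libraries one at a time gave 3 without 2 h, 1 without 3 h, 3 without 6 h, 2 without 12 h, 2 without 24 h and 1 without 48 h. With lane as a term 11 of 15 were lower at an unadjusted p under 0.05, where 10.8% of all genes were. Hspa5, the main chaperone of the endoplasmic reticulum, fell too, from 2738, 3062 and 2477 CPM to 1965, 2171 and 1469, the 1 call among 27 genes of the unfolded protein response list. Hspa5 fell by 0.56 ± 0.13 on the log2 scale (SE, adjusted p = 0.014).

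The NRF2 list held falls and rises. Among the falls were 4 genes of glutathione and thioredoxin enzymes. These were Gclc and Gclm, the subunits of the enzyme that starts glutathione synthesis, Gsr, which reduces glutathione, and Txnrd1, which reduces thioredoxin. Gclm stood at 156, 169 and 121 CPM at 2, 3 and 6 h and 68.2, 74.5 and 52.8 CPM at 12, 24 and 48 h, after 44 CPM at 0 min. Gclm fell by 1.19 ± 0.30 on the log2 scale (SE, adjusted p = 0.022). Gsr was at 59.5, 72.5 and 59.2 CPM at 2, 3 and 6 h and 28.7, 29.4 and 25.6 CPM at 12, 24 and 48 h. Gsr fell by 1.19 ± 0.20 on the log2 scale (SE, adjusted p = 0.0044). Gclc was at 465, 463 and 246 CPM at 2, 3 and 6 h and 191, 191 and 124 CPM at 12, 24 and 48 h and Txnrd1 at 834, 929 and 633 CPM at 2, 3 and 6 h and 486, 476 and 274 CPM at 12, 24 and 48 h, falls of 2.32- and 1.94-fold (adjusted p = 0.036 and 0.046). All 4 were highest at 2 or 3 h and lowest at 48 h. Txnrd1 ended at 274 CPM beside 269 at 0 min, and Gclc at 124 beside 113. Fth1, ferritin heavy chain, and Sqstm1 fell as well, 1.28- and 1.64-fold, while Taldo1 and Tkt of the pentose phosphate pathway and Txn1, thioredoxin, rose 1.55-, 1.42- and 1.38-fold. In all 6 of 21 fell and 3 rose, beside 5.83% and 6.19% of all genes, and 12 did not pass. The list median was -0.03. Sides did not overlap for 7 members on the lower and 6 on the higher side, beside 12.8% and 14.3% of all genes. With lane as a term 7 were lower and 3 higher at an unadjusted p under 0.05, beside 10.8% and 11.2% of all genes. With single libraries left out the falls numbered 2 without 2 h, 1 without 3 h, 7 without 6 h, 4 without 12 h, 2 without 24 h and 2 without 48 h. The rises were 0 without 2 h, 0 without 3 h, 6 without 6 h, 3 without 12 h, 0 without 24 h and 2 without 48 h. Hmox1, heme oxygenase, was at 234, 188 and 42.7 CPM at 2, 3 and 6 h and 29.3, 41 and 57.1 CPM at 12, 24 and 48 h and did not pass (adjusted p = 0.056). It is also on the macrophage marker list, whose summed level moved the same way, from 285, 234 and 82.6 CPM to 64.4, 67 and 96.6, mostly through Hmox1. Among its other members Emr1 (F4/80) went from 5.34 CPM at 2 h to 0.716 at 24 h, 0 of 5 members tested passed, and the complement genes C1qa to C1qc were listed at 0. The part of macrophages in the result was not tested, and in bulk RNA fewer cells of a type and less RNA per cell cannot be told apart.

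**Figure D3:**
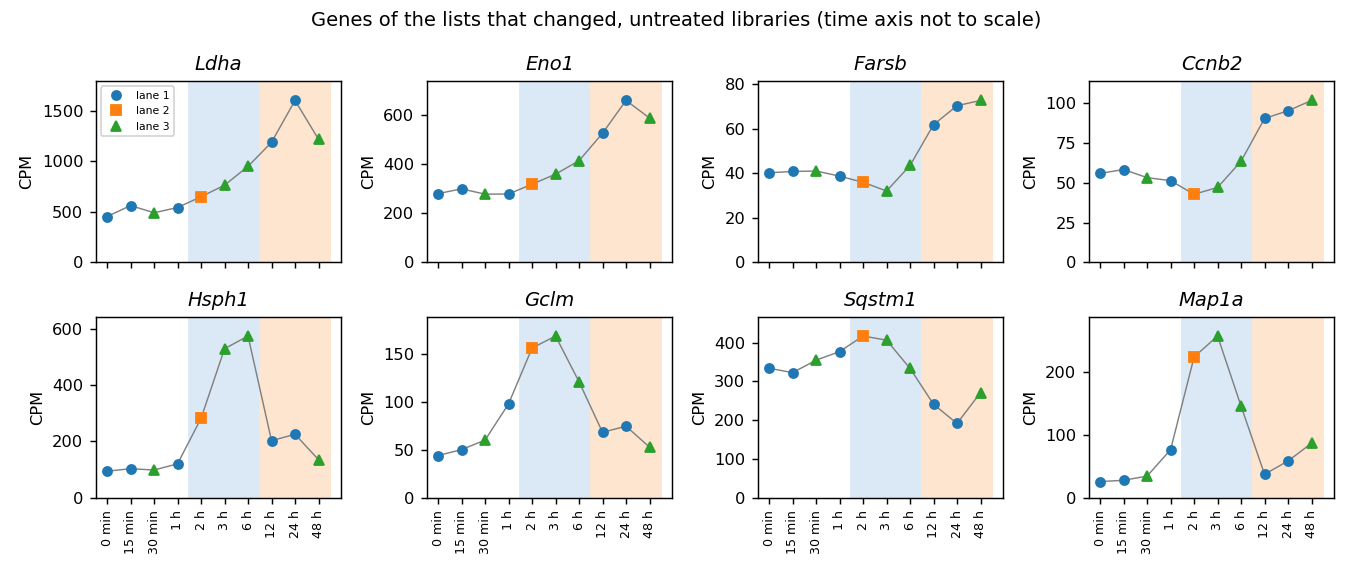
CPM of 8 genes of these lists in the 10 untreated libraries, in order of time (axis not to scale); marker shape and colour give the sequencing lane, blue shading the 2 to 6 h and orange the 12 to 48 h libraries. At 12 to 48 h Ldha, Eno1, Farsb and Ccnb2 lie above their 0 min level, whereas Hsph1, Gclm and Map1a peak between 2 and 6 h and return towards it, and Sqstm1 falls below it.

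Lysosome and autophagy genes fell in part. Of 41 tested 9 fell and 1 rose (median log2 fold change -0.20), beside 5.83% and 6.19% of all genes. Sides did not overlap on the lower side for 18, beside 12.8% of all genes. With lane as a term 11 were lower and 1 higher at an unadjusted p under 0.05, beside 10.8% and 11.2% of all genes. Sqstm1, the autophagy receptor p62, was at 417, 407 and 334 CPM at 2, 3 and 6 h and 241, 192 and 271 CPM at 12, 24 and 48 h, the late values being below the 334 CPM of 0 min. Sqstm1 fell by 0.72 ± 0.14 on the log2 scale (SE, adjusted p = 0.0086). The lysosomal hydrolase genes Glb1 and Gaa fell 1.49- and 1.41-fold (adjusted p = 0.018 and 0.008). Npc1 and Lipa, which help release cholesterol from the lysosome, Ctsb, Flcn and Map1lc3b fell by 0.23 to 0.49 on the log2 scale, and Atp6v1a of the proton pump rose. With libraries left out the falls were 3 without 2 h, 1 without 3 h, 11 without 6 h, 7 without 12 h, 3 without 24 h and 7 without 48 h, and 2 rose without 6 h and 1 without 12 h. The summed macrophage markers given above moved the same way, and their part in this result was not tested. Of the cytosolic ribosomal protein genes, 9 of 75 fell and 0 rose, beside 5.83% and 6.19% of all genes, and the median was -0.10. With lane as a term 19 of 75 were lower and 0 higher at an unadjusted p under 0.05, beside 10.8% and 11.2% of all genes. The largest fall was that of Rpl32, from 682, 709 and 666 CPM to 608, 524 and 534. Rpl32 fell by 0.30 ± 0.07 on the log2 scale (SE, adjusted p = 0.014). The median was -0.14 under library totals. Dropping libraries left falls of 3 without 2 h, 0 without 3 h, 13 without 6 h, 6 without 12 h, 1 without 24 h and 5 without 48 h, and 1 rise without 12 h. Many ribosomal protein genes have near-identical pseudogenes, so their counts are uncertain.

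At 48 h amino acid response genes stood far above 12 and 24 h. In the test of 48 h against 12 and 24 h, fitted over the 6 libraries, 13 genes of 11418 were higher and 1 lower (0.123% called), and 8 of the 13 were among the 18 tested members of the ATF4 list. Trib3, a pseudokinase that ATF4 induces and that in turn restrains it, stood at 155 CPM at 0 min, 36.6, 25.9 and 13.7 at 2, 3 and 6 h, 5.46 and 5.15 at 12 and 24 h, and 99.8 at 48 h. Trib3 at 48 h differed from 12 and 24 h by 4.25 ± 0.47 on the log2 scale (SE, adjusted p = 0.022). Chac1, which breaks down glutathione, stood at 9.69, 17.9 and 9.54 CPM at 2, 3 and 6 h and 4.49, 6.0 and 94.9 CPM at 12, 24 and 48 h, after 95.2 at 0 min. Chac1 at 48 h differed from 12 and 24 h by 4.19 ± 0.39 on the log2 scale (SE, adjusted p = 0.02). Ddit3, the death-linked factor CHOP, was at 13.7, 15.9 and 11.9 CPM at 2, 3 and 6 h and 6.08, 9.32 and 48.4 CPM at 12, 24 and 48 h (log2 fold change 2.67 ± 0.28 SE, adjusted p = 0.02) and ended above its 0 min level of 18.5 CPM; it overlaps Mars on the other strand. The other ATF4 list members called were Slc7a3, an importer of cationic amino acids (log2 fold change 3.55), Sesn2, a leucine sensor that restrains mTORC1 (2.62), Psph and Psat1 of serine synthesis (1.52 and 1.18) and the stress gene Nupr1 (4.90).

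Other amino acid genes outside the list were higher too. Cth, which makes cysteine from cystathionine, stood at 229.6, 191 and 109 CPM at 2, 3 and 6 h and 39.1, 36.7 and 386 CPM at 12, 24 and 48 h, against 349 at 0 min. Cth at 48 h differed from 12 and 24 h by 3.36 ± 0.36 on the log2 scale (SE, adjusted p = 0.022). Gpt2, mitochondrial alanine transaminase, was at 100.2, 74.2 and 40.6 CPM at 2, 3 and 6 h and 17.6, 15.7 and 183 CPM at 12, 24 and 48 h. Gpt2 at 48 h differed from 12 and 24 h by 3.48 ± 0.43 on the log2 scale (SE, adjusted p = 0.04). Pck2, mitochondrial PEP carboxykinase, was at 213, 221 and 194 CPM at 2, 3 and 6 h and 120.0, 76.9 and 490.1 CPM at 12, 24 and 48 h. Pck2 at 48 h differed from 12 and 24 h by 2.33 ± 0.24 on the log2 scale (SE, adjusted p = 0.02). The neutral amino acid carrier gene Slc1a4 was 4.22-fold higher (adjusted p = 0.02), and the gene model LOC105244027 was also higher. The 1 gene that was lower was Egr1, an immediate early transcription factor, at 4.20, 3.41 and 4.02 CPM at 2, 3 and 6 h and 9.61, 11.2 and 1.03 CPM at 12, 24 and 48 h. Egr1 at 48 h differed from 12 and 24 h by -3.31 ± 0.34 on the log2 scale (SE, adjusted p = 0.02). At 12 and 24 h, Cth, Gpt2, Pck2 and Psph lay below all their middle values, and at 48 h above all of them. Slc1a4 overlapped its middle values at 12 and 24 h. Over the ATF4 list, median log2 ratios to 2 to 6 h were -0.65 at 12 h, -0.56 at 24 h and 0.76 at 48 h. In the pooled comparison of the sides, where 6.19% of all genes rose and 5.83% fell, 0 of 18 members rose and 1 fell. That was Pycr1 of proline synthesis, at 77.6, 76.2 and 56.9 CPM at 2, 3 and 6 h and 32.1, 11.4 and 49 CPM at 12, 24 and 48 h. Pycr1 fell by 1.19 ± 0.37 on the log2 scale (SE, adjusted p = 0.047). With libraries left out in turn, falls in the list were 0 without 2, 3, 12 or 24 h, 1 without 6 h and 3 without 48 h. Rises were 2 without 12 h and 0 without any other library.

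**Figure D4:**
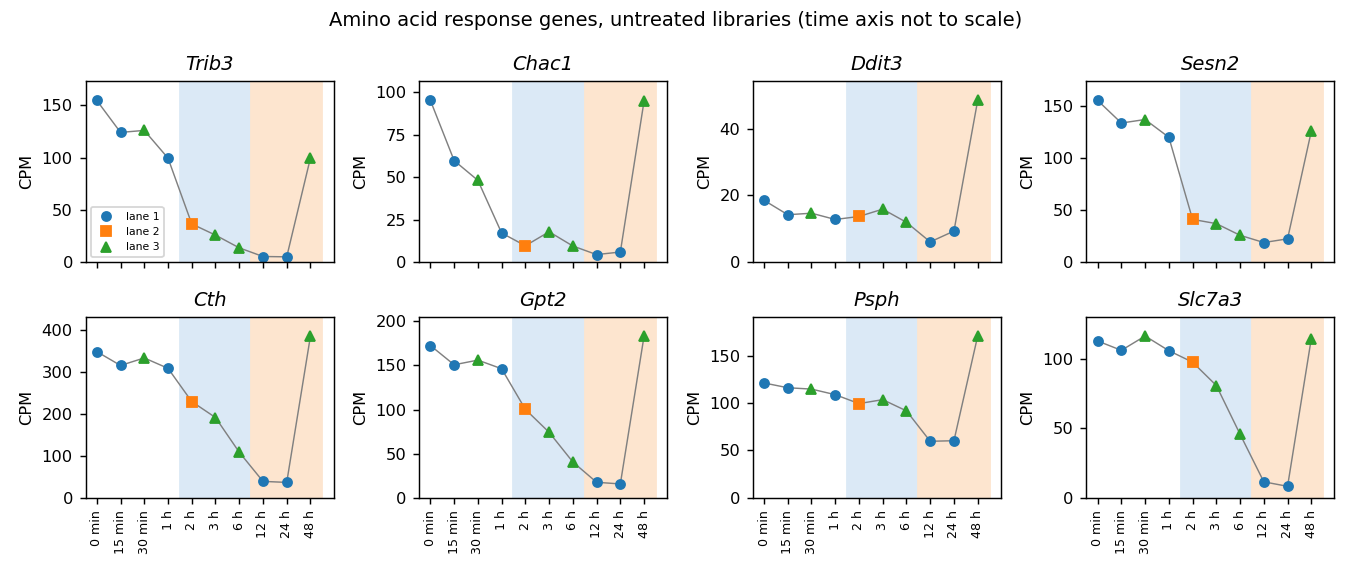
CPM of 8 genes that were higher at 48 h than at 12 and 24 h, in the 10 untreated libraries in order of time (axis not to scale); marker shape and colour give the lane, blue shading the 2 to 6 h and orange the 12 to 48 h libraries. Each falls to its lowest level at 12 or 24 h and at 48 h is higher again, by 2.87-fold (Psph) to 19-fold (Trib3). The 12 and 24 h libraries were run in lane 1 and the 48 h library in lane 3, so time and lane cannot be told apart here.

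**Figure D5:**
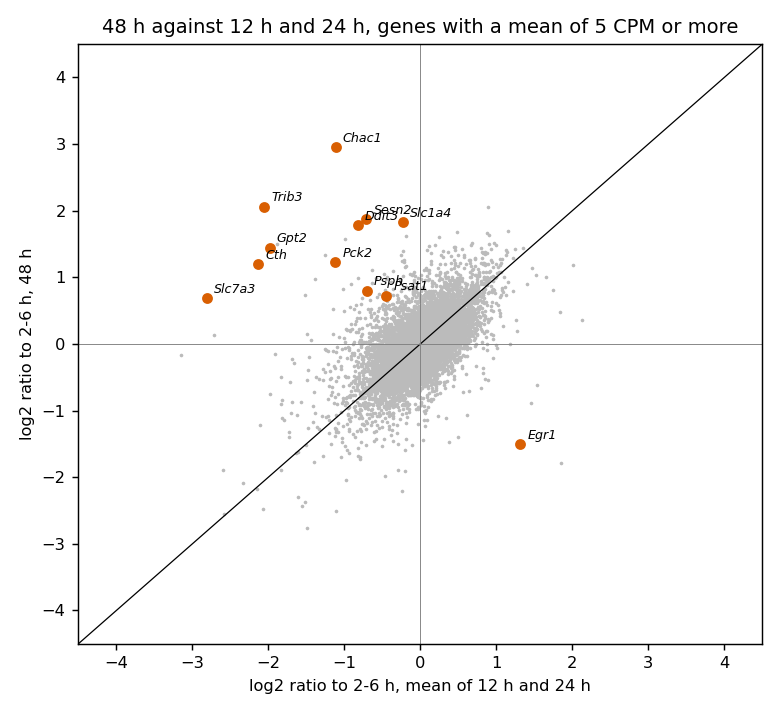
Scatter plot in which each point is 1 of 9503 genes with a mean of at least 5 CPM; the x axis is the mean log2 ratio of 12 and 24 h to 2 to 6 h and the y axis that of 48 h, with a line where both are equal. Orange points are the called genes with at least 5 CPM: 11 lie above the line, most of them negative on x and positive on y, and Egr1 lies below it.

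The 48 h library was run in lane 3 and those of 12 and 24 h in lane 1, so in this test time and lane cannot be told apart. The lane 1 libraries of 0 min, 15 min and 1 h held 155, 124 and 99.6 CPM of Trib3 and 349, 316 and 309 CPM of Cth, and the lane 3 library of 30 min 126 and 334. The lane 3 library of 6 h held 13.7 CPM of Trib3. With lane as a term over the 10 untreated libraries the log2 fold changes of Trib3 and Cth were 4.06 and 3.25, and no gene passed (smallest adjusted p 0.12, 783 genes or 6.6% at an unadjusted p under 0.05). The fit over the 10 untreated libraries without lane called 194 higher and 68 lower (2.21%). Higher there were 14 of 18 ATF4 list and 9 of 19 synthetase genes, beside 1.64% of all genes. Also higher there were 5 of 14 hypoxia response genes (Vegfa, Bnip3l, Ndrg1, Ddit4 and Ero1l), 3 of 5 pro-survival genes of the Bcl-2 family (Bcl2, Bcl2a1a and Bcl2a1d) and 4 of 20 p53 targets (Bbc3, Sesn2, Trp53inp1 and Rrm2b), with 1 p53 target, Aen, lower. Ddit4 and Sesn2 are also on the ATF4 list. Bcl2a1a and Bcl2a1d are near-identical copies, so that their counts are uncertain. Vegfa, a growth factor for blood vessels, stood at 28.4, 23.5 and 12.3 CPM at 2, 3 and 6 h and 9.16, 7.32 and 51.9 CPM at 12, 24 and 48 h. Of 39 ribosome biogenesis genes 5 were lower, beside 0.574% of all genes. The 48 h side is 1 library, whose spread is taken to be that of the others. Without the 12 h or without the 24 h library, which leaves 2 single late libraries, 0 genes passed (1165 and 888 at an unadjusted p under 0.05, adjusted p of Trib3 0.46 and 0.44), and without 6 h 514 were higher and 398 lower. Without 2 h there were 42 calls. In the stimulated arm Trib3 stood at 3.94, 9.85 and 68.9 CPM at 12, 24 and 48 h and Cth at 99.5, 162 and 412. There the 12 and 24 h libraries were run in lane 2 and the 48 h library in lane 4. Time and lane therefore cannot be told apart in that arm either.

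Promoters are shown for the 4 ATF4 list members with the largest change at 48 h that have a RefSeq entry (200 bases before the start, GRCm38.p6, 5′ to 3′ on the gene's strand). Capitals mark TGATGNAA, the core of the composite site that C/EBP and ATF proteins bind, searched on both strands and here found on the opposite one.
Nupr1: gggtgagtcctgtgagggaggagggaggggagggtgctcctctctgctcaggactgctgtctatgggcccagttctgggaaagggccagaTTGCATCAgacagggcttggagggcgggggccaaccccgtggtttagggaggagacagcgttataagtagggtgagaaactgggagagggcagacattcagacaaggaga
Chac1: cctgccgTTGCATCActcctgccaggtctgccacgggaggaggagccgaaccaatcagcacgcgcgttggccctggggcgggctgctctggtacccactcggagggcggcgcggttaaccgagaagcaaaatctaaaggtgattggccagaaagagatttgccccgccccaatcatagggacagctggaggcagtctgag
Trib3: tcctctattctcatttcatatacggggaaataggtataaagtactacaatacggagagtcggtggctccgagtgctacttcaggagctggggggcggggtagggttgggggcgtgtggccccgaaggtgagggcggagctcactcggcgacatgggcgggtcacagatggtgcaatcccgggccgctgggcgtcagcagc
Ddit3: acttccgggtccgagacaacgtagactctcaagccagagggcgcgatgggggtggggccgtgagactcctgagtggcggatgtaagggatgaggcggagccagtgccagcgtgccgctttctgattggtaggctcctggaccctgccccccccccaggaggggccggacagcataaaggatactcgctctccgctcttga
Their positions are chr7:126625471-126625670 (minus strand), chr2:119351042-119351241 (plus), chr2:152344061-152344260 (minus) and chr10:127290593-127290792 (plus). Nupr1 and Chac1 hold 1 match each in the stretch shown, Trib3 holds 1 just past the start, which is not printed, and Ddit3 holds none in the 300 bases searched (250 before to 50 after the start). Of the 13 genes higher at 48 h, 10 have an entry and 5 of these hold the core (Chac1, Nupr1, Pck2, Slc1a4 and Trib3). Of the 18 tested members of the ATF4 list 16 have an entry and 4 hold it (25%; Chac1, Nupr1, Pycr1 and Trib3), beside 2.96% of 8773 tested genes and 4.51% of all 27025 genes with an entry. The absence of a match says only that these letters are not in the window.

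Of 14 B cell markers tested 3 passed: Pax5 and Ly6d rose and Cd79a fell, where 6.19% of all genes rose and 5.83% fell. The same shares stand behind the other small lists here. Pax5, the factor that keeps B cells B cells, was at 116, 111 and 168 CPM at 2, 3 and 6 h and 228, 175 and 179 CPM at 12, 24 and 48 h, after 224 at 0 min. Pax5 rose by 0.56 ± 0.16 on the log2 scale (SE, adjusted p = 0.032). Cd79a, a signalling chain of the antigen receptor, was at 297, 296 and 262 CPM at 2, 3 and 6 h and 245, 234 and 217 CPM at 12, 24 and 48 h. Cd79a fell by 0.30 ± 0.09 on the log2 scale (SE, adjusted p = 0.042). The germinal center list had 2 of 7 higher: Rgs13, which damps chemokine receptor signals, at 738, 771 and 855 CPM at 2, 3 and 6 h and 1085, 1638 and 1435 CPM at 12, 24 and 48 h (log2 fold change 0.81 ± 0.15 SE, adjusted p = 0.0065), and Mef2b. Mef2b rose by 0.42 ± 0.11 on the log2 scale (SE, adjusted p = 0.024). Of plasma cell genes 1 of 12 rose, Igj, the joining chain of secreted antibody. Igj rose by 0.58 ± 0.18 on the log2 scale (SE, adjusted p = 0.048). Migration receptor genes fell in 3 of 16 cases and rose in 0. Ccr6, the receptor of the chemokine CCL20, was at 17.5, 17 and 9.13 CPM at 2, 3 and 6 h and 4.54, 5.40 and 5.94 CPM at 12, 24 and 48 h (log2 fold change -1.46 ± 0.24 SE, adjusted p = 0.0039), and Gpr15 and the integrin gene Itgb7, both used in homing to the gut, fell 2.49- and 2.16-fold (adjusted p = 0.02 and 0.01). Of these 9 calls, leaving out the 2 h library ended 7 (adjusted p 0.051 to 0.19), the 3 h library 7 (adjusted p 0.061 to 0.17), the 12 h library 4 (adjusted p 0.052 to 0.11), the 24 h library 7 (adjusted p 0.052 to 0.17) and the 48 h library 3 (adjusted p 0.053 to 0.11), while Rgs13 and Ccr6 held throughout.

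Signalling lists gave scattered calls, and for these and the other lists of this paragraph 6.19% of all genes rose and 5.83% fell. Socs3 and Cish, which cytokine receptors induce to damp themselves, fell: Cish stood at 14.2, 7.45 and 2.79 CPM at 2, 3 and 6 h and 3.59, 1.36 and 1.64 CPM at 12, 24 and 48 h, with an overlap at 6 and 12 h. Cish fell by 1.90 ± 0.54 on the log2 scale (SE, adjusted p = 0.034). Tgfbr1, a receptor chain for TGFb, was at 359, 282 and 146 CPM at 2, 3 and 6 h and 120.1, 133 and 126 CPM at 12, 24 and 48 h, the 1 call among 18 genes of the TGFb and SMAD list, whose median was -0.46. Tgfbr1 fell by 1.05 ± 0.29 on the log2 scale (SE, adjusted p = 0.032). The chemokine genes Ccl3 and Ccl4 rose (adjusted p = 0.014 and 0.044) but at 48 h were within their 2 to 6 h range. Ccl3 was at 2.60, 2.57 and 4.72 CPM at 2, 3 and 6 h and 13.5, 18 and 4.21 CPM at 12, 24 and 48 h. Relb, an NF-kB subunit, fell 1.39-fold (adjusted p = 0.034). Tnfrsf8, the activation marker CD30, was at 7.02, 7.03 and 5.37 CPM at 2, 3 and 6 h and 1.89, 2.31 and 3.14 CPM at 12, 24 and 48 h. Tnfrsf8 fell by 1.40 ± 0.33 on the log2 scale (SE, adjusted p = 0.015). Neat1, a nuclear long RNA, went from 68.6 CPM at 0 min to 636, 676 and 499 at 2 to 6 h and 361, 315 and 373 after. Neat1 fell by 0.79 ± 0.21 on the log2 scale (SE, adjusted p = 0.028). Dendritic cell markers Zbtb46 and Batf3 fell 1.74- and 1.66-fold (2 of 5 tested), and the list's summed level went from 352, 306 and 213 to 206, 177 and 217 CPM, mostly Ccr7, while Itgax and Clec9a were under 1 CPM. The part of this marker shift in the other results was not tested. Cholesterol synthesis genes had a median of 0.51 but 1 call of 22 (their regulator Srebf2, log2 fold change 0.40 ± 0.12 SE, adjusted p = 0.042), with medians of 0.05, 1.09 and 0.51 at 12, 24 and 48 h. Of these 11 calls, leaving out the 2 h library ended 10 (adjusted p 0.064 to 0.2), the 3 h library 11 (adjusted p 0.075 to 0.15), the 6 h library 1 (adjusted p of 0.073), the 12 h library 6 (adjusted p 0.052 to 0.11), the 24 h library 11 (adjusted p 0.054 to 0.16) and the 48 h library 4 (adjusted p 0.067 to 0.096).

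Single members of further lists passed, where 6.19% of all genes rose and 5.83% fell. Cpt1a, which brings fatty acids into mitochondria, stood at 29, 25.9 and 20.6 CPM at 2, 3 and 6 h and 19.3, 14.4 and 13 CPM at 12, 24 and 48 h. Cpt1a fell by 0.69 ± 0.21 on the log2 scale (SE, adjusted p = 0.044). Echs1 of fatty acid oxidation rose 1.40-fold (adjusted p = 0.041). Of the FOXO and quiescence list the pseudokinase gene Trib2 and the transcription factor gene Foxp1 rose 1.37- and 1.34-fold, while Sesn3, a sestrin, fell 1.46-fold. Of the G1 list Cdk6, a G1 kinase, and Cdkn3, a phosphatase that acts on cyclin-dependent kinases, rose 1.38- and 1.53-fold, and E2f1 was the 1 fall. Of 18 circadian clock genes Per1, a repressor of the clock, rose 1.61-fold and Nr1d2, a nuclear receptor of the clock, fell 1.85-fold. Phlda3, a p53 target that restrains Akt, stood at 0.822, 1.32 and 0.964 CPM at 2, 3 and 6 h and 0.387, 0.300 and 0.244 CPM at 12, 24 and 48 h. Phlda3 fell by 1.73 ± 0.38 on the log2 scale (SE, adjusted p = 0.013). It was the 1 call among 21 p53 targets. Parp14 was the 1 call among 15 interferon stimulated genes (log2 fold change 0.69 ± 0.20 SE, adjusted p = 0.038) and Snhg6 the 1 call among 10 small nucleolar RNA host genes (log2 fold change -0.35 ± 0.10 SE, adjusted p = 0.035). Tia1, an RNA binding protein of stress granules, stood at 50.8, 42.5 and 53.4 CPM at 2, 3 and 6 h and 78.1, 85.8 and 84.3 CPM at 12, 24 and 48 h. Tia1 rose by 0.76 ± 0.13 on the log2 scale (SE, adjusted p = 0.0046). Il2rg, the receptor chain shared by many interleukins, rose 1.18-fold. Of these 14 calls, leaving out the 2 h library ended 11 (adjusted p 0.085 to 0.17), the 3 h library 13 (adjusted p 0.064 to 0.2), the 12 h library 6 (adjusted p just over 0.05 to 0.095), the 24 h library 11 (adjusted p 0.051 to 0.13) and the 48 h library 7 (adjusted p 0.052 to 0.15), while Tia1 held throughout. Lists of hypoxia, ribosome biogenesis, fatty acid synthesis, replication-dependent histone and both Bcl-2 family groups had no call in either direction in the pooled comparison.

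The stimulated arm over the same hours had 1400 genes higher and 1227 lower (11.5% and 10.1% of all tested). Whether a gene's change differed between the arms was tested over the 12 libraries of 2 to 48 h, and 0 of 11723 genes passed in edgeR (smallest adjusted p 0.16, 588 genes or 5.02% at an unadjusted p under 0.05), against 66 in DESeq2. Libraries of the same time deviated together in the arms, and with time as a block across them, an alternative chosen after the data were seen, 263 genes passed in the same 12 libraries (2.24%). That count was 0 without the 2 h, 3 h or 24 h pair (1376, 1315 and 1455 genes at an unadjusted p under 0.05), 596 without 6 h, 711 without 12 h and 109 without 48 h. It held 6 of 14 hypoxia response genes (Bnip3, Bnip3l, P4ha1, Ddit4, Pdk1 and Kdm3a), all with the stimulated change above the untreated one. Of the 1459 genes called for the untreated arm it held 47. Pde2a, which rose without stimulation, went with it from 5.57, 7.81 and 7.21 CPM to 6.16, 3.40 and 1.85 (difference of the log2 changes, stimulated minus untreated, -2.45 ± 0.29 SE, adjusted p = 0.026). The 20-library fit called 27 of 12139, all of them among the 263 (0.222%). Among them Cd86, a costimulatory ligand, stood at 105, 112 and 128 CPM at 2, 3 and 6 h and 110.1, 116 and 134 CPM at 12, 24 and 48 h without stimulation. With it Cd86 fell (265, 336 and 306 CPM against 154, 144 and 134; difference of the log2 changes -1.13 ± 0.16 SE, adjusted p = 0.011). Fcer1g, the signalling chain of Fc receptors, fell without stimulation (30.1, 29.6 and 27.3 CPM at 2, 3 and 6 h and 20.3, 15.1 and 19.6 CPM at 12, 24 and 48 h) and rose with it (32.1, 31.7 and 33.9 CPM against 42.4, 57.8 and 55.4; difference 1.33 ± 0.17 SE, adjusted p = 0.011). Arm, animal and, in part, lane cannot be told apart here, and with lane as a term and no pairing 0 genes passed (834 at an unadjusted p under 0.05).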

How the data were processed

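The files deposited by the authors hold raw counts, with each library in a file of its own and 41115 genes in each. Per the submitters' processing notes, poly-A TruSeq reads were handled with STAR and HTSeq and the build was GRCm38.p3 (mm10). Versions, annotation and strand setting: not given in the sources used here. Over the 20 libraries the total was 36873155 to 60918651 counts, which puts the floor of 3 counts at 0.0492 to 0.0814 CPM.

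Samples were grouped by the labels (treatment, time). A gene was tested if 3 or more of the fitted libraries reached 1 CPM, with edgeR 4.0.16 (R 4.3.3; quasi-likelihood test, TMM scaling, Benjamini-Hochberg adjustment, threshold 0.05). A printed SE equals the log2 fold change over the square root of its F value. The design set the fit of the 6 libraries as the main test. As it called no gene, genes are named from the listed alternative of 8 groups over all 20 libraries, a choice made after that result was known, as were the alternatives of that fit. Members, gene lists and tests were chosen with earlier results of these data known.

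The rule for named genes took, per direction, the 12 largest changes among called genes with a mean of at least 5 CPM over the 6 libraries and no overlap of the sides, the 6 largest at 48 h, up to 4 called members per list, and any cell type marker. Gene models without a name and receptor gene segments were left out. The Mir17 cluster, members beyond these and the genes named for the arms' difference were picked after their values were seen. Values at single late times are log2(CPM + 0.5) minus the mean of 2, 3 and 6 h. Gene positions are from GENCODE vM21 and sequences from RefSeq.

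Alternatives were RLE scaling, library totals, DESeq2 1.42.0, limma-voom (limma 3.58.1), other filters, lane as a term, other limits of the phases, a pseudocount of 2 CPM, time as a block across the arms (same-time libraries deviated together, correlations of 0.562 to 0.861 across genes) and leaving out each library. Tested on simulated data with 200 changed genes, the fit of 6 libraries recovered 97% of 2-fold changes (11418 genes), that of 8 groups 95% (12139 genes), the 48 h test 70% (11418 genes) and the test between arms 66% (11723 genes). The simulation gave every gene the same dispersion (spread beyond counting error) of 0.02, and held no trend within a side and no lane effect. Its recovery rates are therefore not the power of these fits on the real libraries. Some genes are not reported here.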

Additional observations from a re-analysis of the deposited data

Results flagged for a closer look

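The change from 2 to 6 h to 12 to 48 h differed between the stimulated and the untreated arm for 27 genes in the fit of 8 groups over all 20 libraries. Of the genes that the naming rule took for the untreated arm, 2 were among them, Rgs13 and Gpr15. Cd86 and Fcer1g, given above for the difference between the arms, were among them as well. Rgs13 rose without stimulation (log2 fold change 0.81) and had 644, 687 and 483 CPM at 2, 3 and 6 h and 476, 565 and 411 CPM at 12, 24 and 48 h with it (difference of the log2 changes, stimulated minus untreated, -1.14 ± 0.21 SE, edgeR adjusted p = 0.041). Gpr15 fell without stimulation (log2 fold change -1.32) and had 14.8, 24.8 and 54.3 CPM and then 59.7, 68.5 and 64.9 CPM with it (difference 2.36 ± 0.45 SE, adjusted p = 0.041). In the fit of the 12 libraries neither passed (adjusted p = 0.36 for both), and with time as a block across the arms both did (adjusted p = 0.033 and 0.029). That paired fit found a difference for 263 genes, 6 further ones that the naming rule took among them. The log2 change with stimulation was below that without it for Pde2a (difference -2.45 ± 0.29 SE, adjusted p = 0.026), Map1a (-1.08 ± 0.14 SE, adjusted p = 0.026), Batf3 (-1.22 ± 0.16 SE, adjusted p = 0.026) and Foxp1 (-0.52 ± 0.09 SE, adjusted p = 0.033), and above it for Gstt2 (0.64 ± 0.08 SE, adjusted p = 0.026) and Glb1 (0.67 ± 0.12 SE, adjusted p = 0.037). None of these passed without the 2 h, 3 h or 24 h pair. Each arm is 1 animal.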

How the results depend on the processing

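Within the untreated arm no label pairs libraries. Across the arms the labels share times, and with time as a replicate block, added after the data were seen, the test between arms called 263 genes in the 12 libraries and 825 over all 20. Same-time libraries of the arms had correlations of their deviations from the group mean of 0.562 to 0.861 (6 pairs, across 9503 genes, which are not independent). For 12 to 48 h against 2 to 6 h, RLE scaling, library totals, limma-voom, the filter of 5 CPM and lane 3 alone gave 0 calls like the fit of 6 libraries. DESeq2 gave 1100, no filter on low counts 956, the 10 untreated libraries 1327, all 20 libraries 1459, lane as a term 2 over the 10 untreated and 1 over all 20 libraries, 2 and 3 h against 24 and 48 h 830, and 3 and 6 h against 12 and 24 h 1; with single libraries left out the counts ran from 0 to 2009, the latter without 6 h. The fit of 8 groups gave 2223 with DESeq2 and 140 to 2812 with a library left out, the extremes without 3 h and without 6 h. For 48 h against 12 and 24 h the counts were 375 with DESeq2, 560 with no filter, 262 over the 10 untreated libraries, 0 with lane, and 0 to 912 with a library left out. For the difference between arms they were 66 with DESeq2, 26 with no filter, 27 in the fit of 8 groups, and 0 to 711 with a time left out, the highest paired and without 12 h (unpaired at most 26, without 6 h). Genes over 2-fold higher numbered 32 at 12 h with a pseudocount of 2 CPM and 59 at 24 h under library totals. No called gene among those named changed sign under the alternatives run. Each of the 125 genes that the naming rule took and that passed a test had at least 9 counts in each of the 6 libraries, while markers described as under 1 CPM include values below 3 counts. The causes of these differences were not tested.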
